A study of Mus musculus with 10 samples.

Results

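The 4 neighbouring genes at the distal end of mouse chromosome 13 were examined: Paip1, 4833420G17Rik, 3110070M22Rik and Tmem267, together 7 Affymetrix probe sets of 45037 measured. The members were chosen by measured values: they are the probe sets that the authors' deposited table of genotype differences lists (2-fold or more, corrected p no higher than 0.05) and whose only alignment starts in 1 window of 100 kb near the end of chromosome 13. That table lists 96 probe sets, 82 of them with 1 alignment and 9 of those on chromosome 13. Mutant embryos carried Evf2TS/TS, an allele with a transcription stop in the long non-coding RNA Evf2, and controls were Evf2+/+ wildtype. Both genotypes came from a mixed background of 129Sv, Bl6 and Fvbn and were taken at embryonic stage E13.5. The tissue was medial ganglionic eminence (MGE), the ventral forebrain swelling that produces cortical interneurons, and each pool held 4 MGE from 2 brains. The 5 mutant pools were 2 female (replicates 1 and 2) and 3 male, and the 5 wildtype pools were 3 female (replicates 1 to 3) and 2 male.

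Evf2 is transcribed across enhancers of the Dlx5 and Dlx6 genes on another chromosome, chromosome 6, and the arrays ask which transcripts differ when it is lost. Paip1 encodes a protein that binds the cytoplasmic poly(A)-binding protein. In mammalian cells it promotes translation initiation by helping to bring the capped and polyadenylated ends of a messenger RNA together. Tmem267 encodes a predicted transmembrane protein. RefSeq gives 4833420G17Rik as a protein-coding gene of no given name and 3110070M22Rik as a long non-coding RNA. The name Tmem267 replaces Gm7120, the older symbol in the deposited table. In bulk tissue, fewer cells that express a gene and less RNA per cell cannot be told apart.

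The probe set alignments lay at chr13:120217728-120284312, a stretch of 66.6 kb (genome build not stated in that table). Going along the chromosome, Paip1 came first (plus strand, 120217728 to 120247022), and 4.54 kb after its end 4833420G17Rik began (plus strand, 120251565 to 120274925). A gap of 1.13 kb separated that from 3110070M22Rik (minus strand, 120276059 to 120277190), which overlapped the first 346 bases of Tmem267 (plus strand, 120276845 to 120284312). The second Paip1 probe set aligned inside the first, at 120239500 to 120240653. RefSeq (GRCm38.p6) places the 4 genes in the same order with no other gene between them, after Nnt and before Ccl28. Neither Nnt nor Ccl28 had a listed probe set, and any probe sets of theirs are unnamed here. Of the other 2 listed probe sets on chromosome 13, that of Mtrex started at 113662994, 6.54 Mb before the window, and that of Ssbp2 at 91600767. None started beyond the window, but the window lies near the end of the chromosome, so nothing is read from that.

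The windows around the annotated starts of these genes are shown because Paip1 was higher in mutant pools and the 3 genes after it were lower. All 4 genes matched a RefSeq table (GRCm38.p6) of 250 bases before to 50 bases after each start, with 6 windows in all. The first Paip1 window (chr13:119428350-119428649, plus strand) and that of 4833420G17Rik (chr13:119462509-119462808, plus strand) follow, 5′ to 3′, with the GC box GGGCGG or its reverse complement CCGCCC in capitals.
Paip1: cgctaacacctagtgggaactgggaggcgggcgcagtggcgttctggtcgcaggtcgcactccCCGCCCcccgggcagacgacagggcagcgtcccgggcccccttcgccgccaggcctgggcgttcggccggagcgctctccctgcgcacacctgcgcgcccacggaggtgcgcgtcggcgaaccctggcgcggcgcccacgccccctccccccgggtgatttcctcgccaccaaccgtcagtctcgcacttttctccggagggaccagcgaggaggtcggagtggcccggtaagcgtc
4833420G17Rik: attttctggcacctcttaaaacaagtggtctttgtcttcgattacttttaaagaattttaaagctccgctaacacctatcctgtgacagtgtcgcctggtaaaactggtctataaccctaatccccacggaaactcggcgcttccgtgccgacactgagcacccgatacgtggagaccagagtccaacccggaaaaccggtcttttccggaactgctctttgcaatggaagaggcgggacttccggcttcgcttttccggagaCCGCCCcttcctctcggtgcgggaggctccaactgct
Each of these 2 windows held 1 GC box, a motif found on either strand in 35.7% of the 32851 windows of this length in the table. The Paip1 window was 73.3% G or C with 38 CpG, and the 4833420G17Rik window 52.3% with 20 CpG, against medians of 52.7% and 7 CpG over all windows. The window of the second annotated Paip1 start held 4 GC boxes (81.0% G or C, 49 CpG), so the count depended on the start.

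Tmem267 and 3110070M22Rik, both lower in mutant pools, run in opposite directions. The second annotated start of Tmem267 lies 89 bases from that of 3110070M22Rik. Their windows (chr13:119488223-119488522, plus strand, and chr13:119488335-119488634, minus strand) share 188 bases, which are in capitals below and are the reverse complement of each other.
Tmem267: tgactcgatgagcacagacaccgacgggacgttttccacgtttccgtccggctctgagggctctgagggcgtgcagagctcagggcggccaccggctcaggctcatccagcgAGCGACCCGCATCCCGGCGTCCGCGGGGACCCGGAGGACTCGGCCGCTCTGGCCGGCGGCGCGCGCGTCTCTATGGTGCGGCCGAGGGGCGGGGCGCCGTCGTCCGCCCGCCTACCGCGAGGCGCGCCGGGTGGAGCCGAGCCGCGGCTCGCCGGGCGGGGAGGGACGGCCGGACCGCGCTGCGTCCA
3110070M22Rik: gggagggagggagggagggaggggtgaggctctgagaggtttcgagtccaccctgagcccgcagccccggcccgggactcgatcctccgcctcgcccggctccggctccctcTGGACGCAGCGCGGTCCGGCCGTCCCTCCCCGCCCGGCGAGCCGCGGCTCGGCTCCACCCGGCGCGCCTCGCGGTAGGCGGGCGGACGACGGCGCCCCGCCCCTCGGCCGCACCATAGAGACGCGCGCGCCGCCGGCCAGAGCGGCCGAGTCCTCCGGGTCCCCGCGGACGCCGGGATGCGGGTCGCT
This Tmem267 window held 4 GC boxes (76.0% G or C, 50 CpG) and the 3110070M22Rik window 3 (79.3%, 48 CpG). The window of the first Tmem267 start (chr13:119487836-119488135, plus strand) shared no base with that of 3110070M22Rik. It held 1 GC box (58.7%, 22 CpG). Which start gave the Tmem267 signal was not tested. Over the 6 windows the counts did not separate Paip1 (1 and 4) from Tmem267 (1 and 4). None of the 6 windows held the letters TATAAA (13.6% of all windows, either strand), CCAAT (37.4%, either strand) or the palindrome TAATTA, a core that homeodomain proteins bind (5.29%). Such matches are only letters in these windows.

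Some arrays stood apart. In mutant replicate 5, 298 probe sets lay more than 2-fold under their value on all other arrays (1 to 16 such probe sets on the other arrays). Wildtype replicate 3 had the 16, and 26 probe sets more than 2-fold over all other arrays (0 to 3 elsewhere). Mutant replicate 4 was ordinary by these counts (3 under, 0 over) but lay towards wildtype at most listed probe sets, as described below. Leaving out replicate 5 kept the direction of every member, and of the log2 differences given below that of Tmem267 moved most (to -1.67). Without wildtype replicate 3 the directions were also kept, and that of Tmem267 was -1.68. Evf2 itself (Dlx6os1 in RefSeq) read 9.47 to 58.1 signal units in mutant pools and 453 to 901 in wildtype pools. Of 10 MGE markers only Dlx6 was named, because names come from the authors' table alone. It read 558 to 994 in mutant and 273 to 360 in wildtype pools, and array medians lay between 23.5 and 29.3. No marker was named among 5 of pallium, 4 of endothelium, 3 of microglia, 4 of erythroid cells and 4 of meninges, so other tissue in the pools was not tested. The number of arrays limits the precision.

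Paip1 was the member that was higher without Evf2. Its probe set with the longer alignment, 1425521_at, read 769, 830.5, 793, 490.1 and 822 signal units in mutant replicates 1 to 5. In wildtype replicates 1 to 5 this probe set read 127, 177, 136, 136 and 75.4. Every mutant pool lay above every wildtype pool, and mutant replicate 4 was the lowest of the mutants. The mean was 741 ± 142 in mutant pools and 130.1 ± 36.1 in wildtype pools (SD, n = 5 each). On the log2(signal + 16) scale the fitted difference was 2.45 ± 0.18 (SE, limma with genotype and sex as terms). This contrast chose the members, so it and the differences below are a description with no test.

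The second Paip1 probe set, 1441955_s_at, gave the same picture at about the same ratio. It read 364, 359, 359.6, 232 and 385 in mutant replicates 1 to 5, against 66.0, 93.7, 65.4, 82.0 and 37.4 in wildtype replicates 1 to 5. The groups did not overlap, and the lowest pool of each genotype was the one that was lowest at the first probe set, mutant replicate 4 and wildtype replicate 5. The log2 difference was 2.14 ± 0.19. At pseudocount 64 the log2 differences of the Paip1 probe sets were 2.10 (1425521_at) and 1.64 (1441955_s_at). In mutant pools the log2 excess over the wildtype mean differed between the probe sets by 0.25 to 0.39. By Affymetrix naming, _s_at marks probes that match more than 1 transcript.

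**Figure D1:**
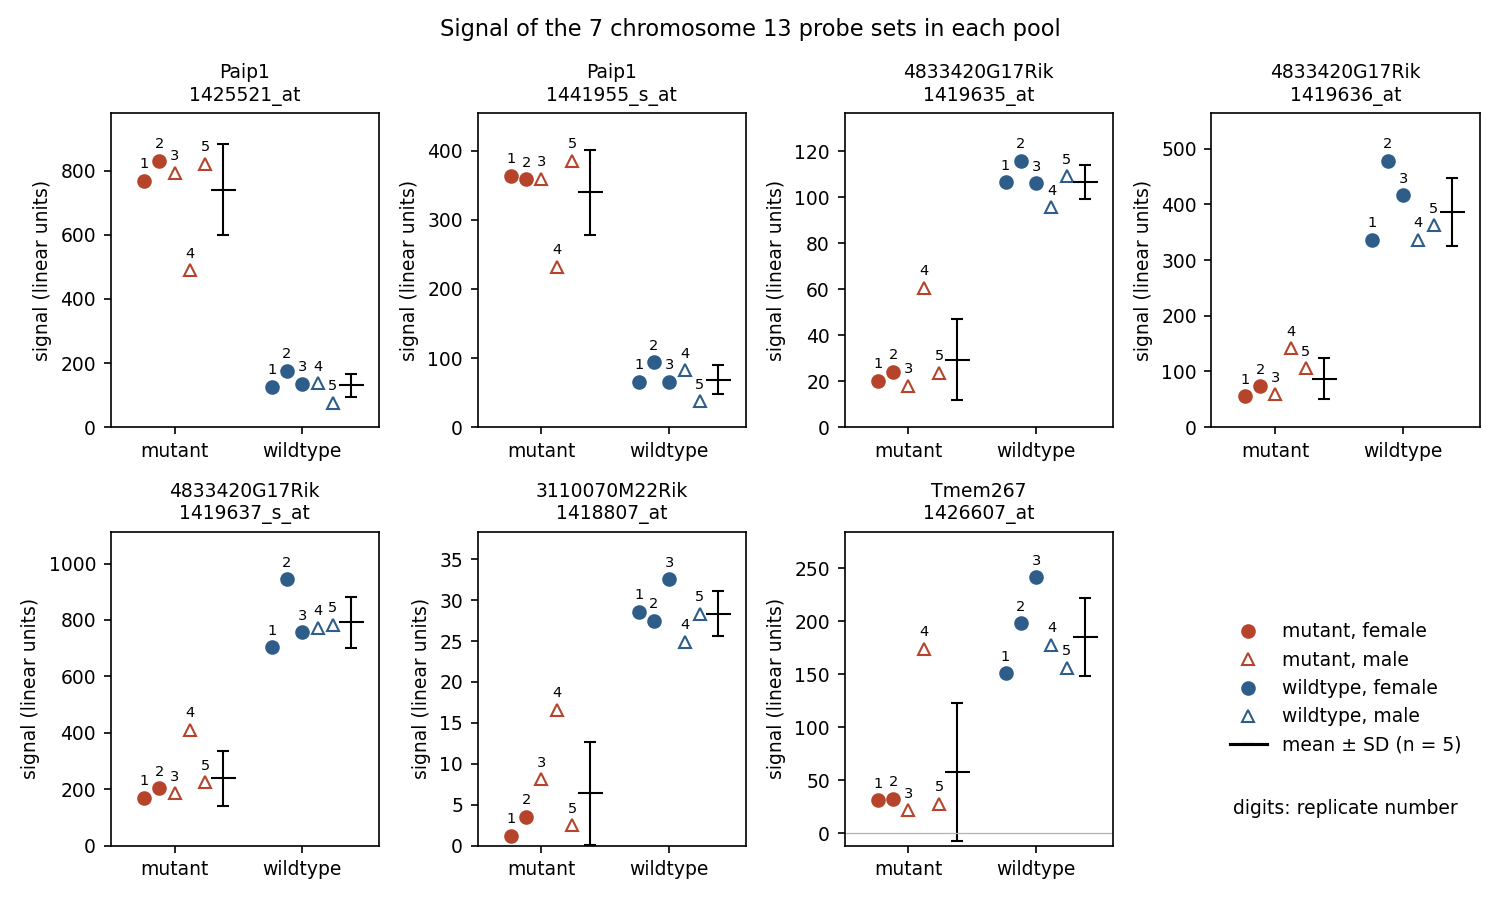
Signal (linear units) of each probe set in each pool, mutant left and wildtype right, with circles for female and triangles for male pools, digits for the replicate number and bars for mean ± SD (n = 5). Paip1 was higher and the other genes lower in mutant pools, and among mutant pools replicate 4 was closest to wildtype at all 7 probe sets.

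The next gene, 4833420G17Rik, was lower at each of its 3 probe sets. The brightest, 1419637_s_at, read 170.4, 204, 185, 410.2 and 225 in mutant replicates 1 to 5, against 703, 944, 757, 772 and 784 in wildtype replicates 1 to 5. At 1419636_at the mutant replicates read 55.7, 73.2, 59.3, 142 and 106, and the wildtype replicates 337, 478, 416, 337 and 363. Groups did not overlap at either probe set, and replicate 4 was the highest mutant pool at both. The dimmest of the 3, 1419635_at, read 20.3, 24.2, 18.1, 60.7 and 23.7 in mutant replicates 1 to 5, against 106.5, 116, 106, 95.7 and 109 in wildtype replicates 1 to 5. Again no mutant pool reached the lowest wildtype pool, which was replicate 4. Means of the brightest probe set were 239 ± 97.9 in mutant pools and 792 ± 90.2 in wildtype pools (SD, n = 5 each).

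The 3 probe sets agreed in direction and less closely in size. All 3 have the same alignment (120251565 to 120274925), and 1419637_s_at also carries the _s_at mark. Whether they read different transcripts was not tested. Log2 differences were -1.77 ± 0.20 (1419637_s_at), -2.05 ± 0.21 (1419636_at) and -1.52 ± 0.20 (1419635_at). Expressed per pool against the wildtype mean, the probe sets of this gene spread over 0.11 to 0.72 log2 units in mutant pools, with a median of 0.56, and over 0.10 to 0.20 in wildtype pools. The dimmest set, 1419635_at, was the one whose size moved most with the pseudocount, to -2.0003 at pseudocount 1 and -0.90 at pseudocount 64. At pseudocount 1 the order of the 3 was still 1419636_at first, but 1419635_at then stood ahead of 1419637_s_at (-2.25, -2.0003 and -1.84).

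3110070M22Rik, the non-coding RNA on the opposite strand, was the dimmest member. Probe set 1418807_at read 1.197, 3.52, 8.13, 16.6 and 2.51 in mutant replicates 1 to 5, against 28.6, 27.5, 32.5, 24.9 and 28.4 in wildtype replicates 1 to 5. Groups did not overlap, but every mutant value was below the medians of the arrays and the wildtype values were near them. The log2 difference of -1.06 ± 0.16 was set by the pseudocount, at -2.50 with pseudocount 1 and -0.40 with pseudocount 64. It has no fixed size.

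Tmem267 was lower in 4 of the 5 mutant pools than in any wildtype pool. Probe set 1426607_at read 31.1, 32.4, 21.7, 174 and 27.6 in mutant replicates 1 to 5, against 151, 198, 241, 178 and 156 in wildtype replicates 1 to 5. Mutant replicate 4 lay inside the wildtype range. Its mean was 57.3 ± 65.3 in mutant pools and 185 ± 36.6 in wildtype pools (SD, n = 5 each). The log2 difference was -1.78 ± 0.39 over all pools and -2.15 ± 0.13 without mutant replicate 4. It was -2.18 at pseudocount 1 and -1.17 at pseudocount 64.

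**Figure D2:**
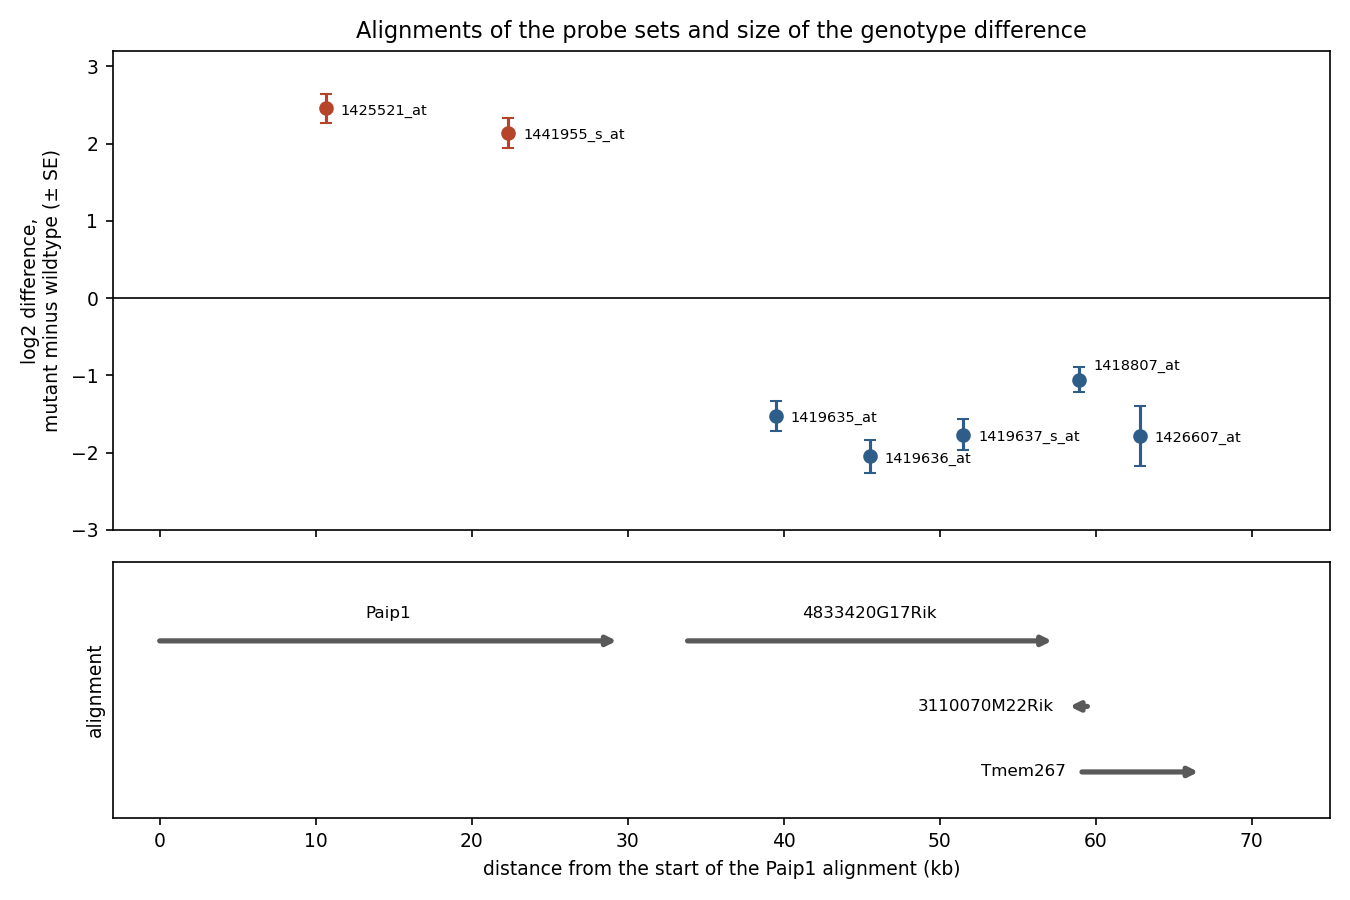
Upper panel: log2 difference, mutant minus wildtype, of each probe set (± SE, limma on log2(signal + 16)), drawn over its alignment, with points of 1 gene moved apart sideways. Lower panel: alignments and strands as arrows by distance in kb from the start of the Paip1 alignment. Paip1 stood at 2.45 and 2.14, and the 3 genes after it between -1.06 and -2.05.

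The deposited table set the members in another order of size. In the authors' deposited table Tmem267 had the largest log2 fold change of the members (-3.03) and 1419635_at the next (-2.60), where the fit here gave -1.78 and -1.52. Paip1 had 2.23 and 2.10 in the authors' deposited table. The member nearest the 2-fold limit was 3110070M22Rik, at 2.23-fold in the authors' deposited table. All 7 had the same direction in both.

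In the fit over all probe sets, limma called 241 of 45037 at an adjusted p under 0.05 (0.535%), 136 higher (0.302%) and 105 lower (0.233%) in mutant pools. With arrays centred on their medians the split was 95 higher and 148 lower. Of the members 6 of 7 were called, 2 higher and 4 lower, and at 6 of 7 the genotypes did not overlap, against 3.07% of all probe sets. The rule used this contrast, so nothing is read from these counts. Tmem267 was not called with all pools and was called without mutant replicate 4. The median log2 difference was -1.52 over the 7 members and 0.02 over all probe sets.

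Mutant replicate 4 lay between the average of the other mutant pools and the wildtype average at every member. Its position was measured on the linear signal, where 0 is the average of the remaining mutants and 1 is the average of the wildtype pools. This was 0.47 and 0.45 at the Paip1 probe sets. At 4833420G17Rik it was 0.36, 0.22 and 0.46 (1419637_s_at, 1419636_at and 1419635_at), at 3110070M22Rik 0.52 and at Tmem267 0.93. The other mutant pools lay between -0.38 and 0.10. Among the 89 other listed probe sets replicate 4 had a median of 0.37 and was the closest mutant to wildtype at 70, so its place at these genes was common to much of the list. At the other listed probe sets of chromosome 13 the position of replicate 4 was 0.50 (Mtrex) and -0.20 (Ssbp2). The other mutant pools there spread from -0.49 to 0.28 and from -0.59 to 0.56, so nothing is read about the rest of the chromosome. At Evf2 the position of replicate 4 was -0.01.

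**Figure D3:**
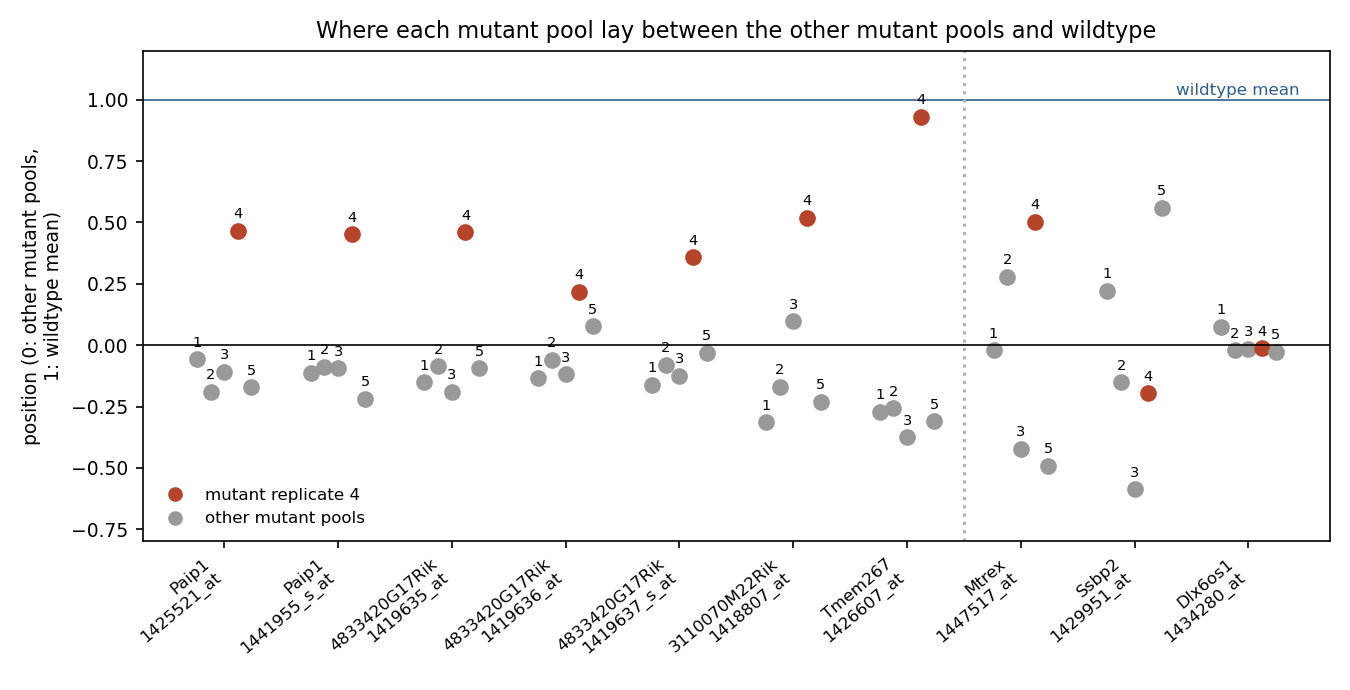
Position of each mutant pool (digits) on the linear signal, from the average of the remaining mutants (0) to that of wildtype pools (1), at the 7 probe sets and, right of the dotted line, at Mtrex, Ssbp2 and Dlx6os1 (Evf2). Replicate 4 lay from 0.22 to 0.93 at the members and at -0.01 at Evf2.

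Covariation within genotype was measured on deviations of log2(signal + 16) from the genotype mean over the 10 pools. The rule did not use these deviations. It did use the genotype difference, and a mutant pool that lies towards wildtype deviates against that difference. There were 21 pairs of probe sets, each tested by an exact permutation of pools within genotype (14400 orderings, 2-sided), adjusted over the 21. The 2 Paip1 probe sets moved together (r = 0.98, exact permutation p = 0.00271, adjusted p = 0.0277; Spearman rho = 0.76, adjusted p = 0.103). So did 1419636_at and 1419637_s_at of 4833420G17Rik (r = 0.91, exact permutation p = 0.00111, adjusted p = 0.0233; rho = 0.88, adjusted p = 0.0459). Its pairs 1419635_at with 1419636_at (r = 0.83) and with 1419637_s_at (r = 0.95) had exact permutation p of 0.00396 and 0.00715, adjusted p = 0.0277 and 0.0376. By Spearman rho these were 0.81 and 0.77, with exact permutation adjusted p of 0.0459 and 0.103. These 4 pairs of the same gene were those that passed by r. Both probe sets of each pair differed between genotypes in the same direction, so the deviations of mutant replicate 4 shared a sign in advance. These p-values are therefore not read as a test free of the rule. By rho 2 passed, and the Paip1 pair and 1419635_at with 1419637_s_at did not. The 2 pools farthest from the median deviation of the first probe set of a pair differed from pair to pair. With them left out, the r of these 4 pairs lay between 0.69 and 0.86. Without mutant replicate 4 it lay between 0.66 and 0.96, and none of the 4 passed (adjusted p from 0.117 to 0.448 by exact permutation), with 3 of 4 at an unadjusted p under 0.05. None of the 4 passed without mutant replicate 5 either, although r was then between 0.94 and 0.97.

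Between different genes, 0 of 17 pairs passed, and 3 had an unadjusted exact permutation p under 0.05. Paip1 ran against the others in all 10 of its pairs (r from -0.57 to -0.25), and the 3 other genes ran together in all 7 of theirs (r from 0.58 to 0.94). Both patterns rested on mutant replicate 4. That pool lay towards wildtype at every member, so the signs of its deviations followed from the directions of the genotype differences. Nothing is read from the signs of these r. Without mutant replicate 4 the 10 pairs of Paip1 had r from -0.17 to 0.46, with a median of 0.32. The 7 pairs of the others then had r from -0.26 to 0.38, with a median of -0.08. With the 2 farthest pools left out, r ran from -0.36 to 0.86 for the Paip1 pairs and from -0.52 to 0.57 for the others. The closest pair of different genes was 1419635_at with Tmem267 (r = 0.94, rho = 0.76, exact permutation p = 0.043, adjusted p = 0.147), which had r = 0.31 without mutant replicate 4 and 0.05 without the 2 farthest pools. The neighbours on opposite strands, 3110070M22Rik and Tmem267, had r = 0.79 (rho = 0.44, exact permutation p = 0.139, adjusted p = 0.208) and r = -0.16 without mutant replicate 4.

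**Figure D4:**
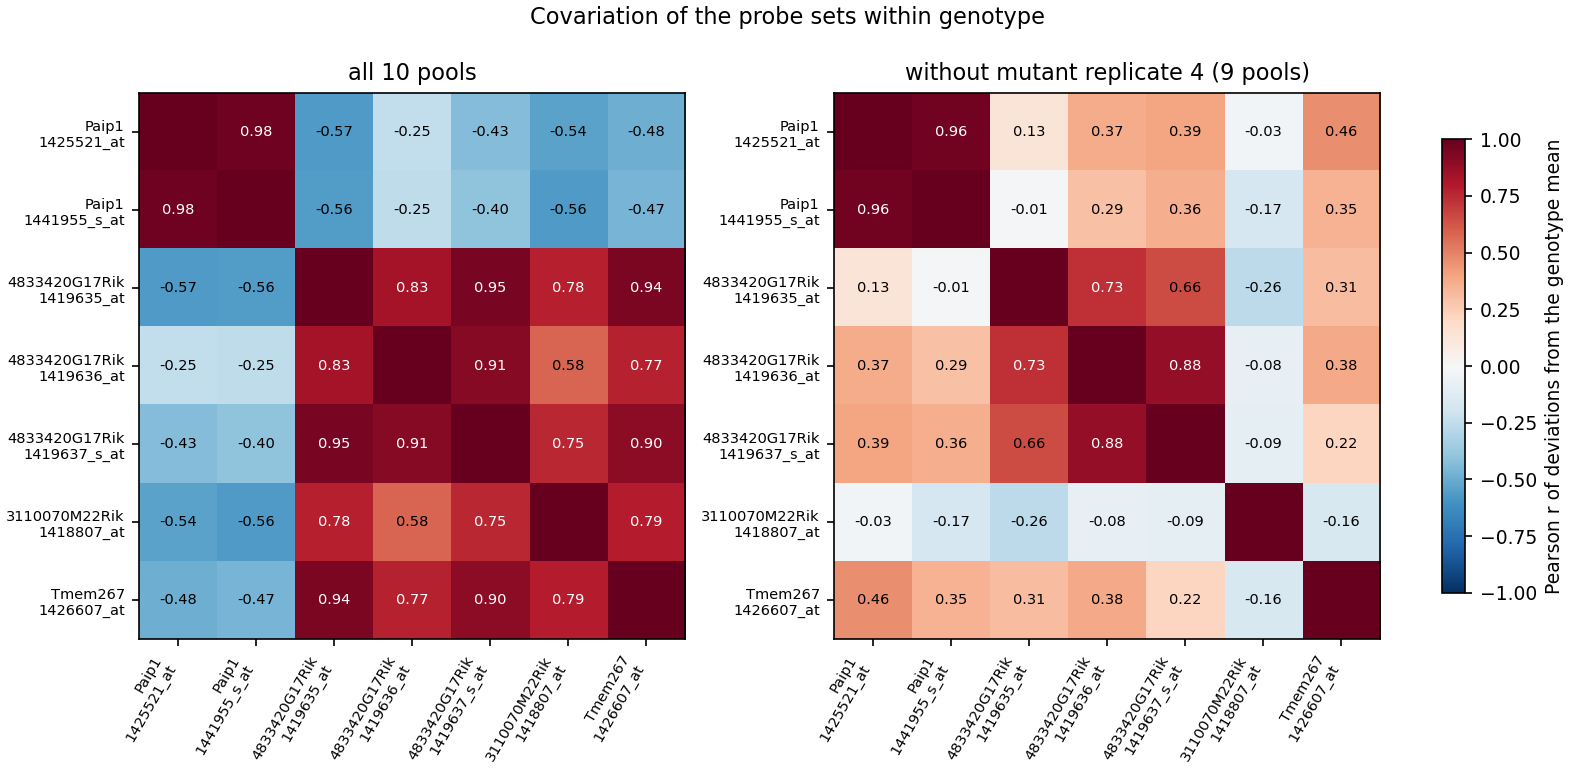
Pearson r of deviations from the genotype mean between the 7 probe sets, over all 10 pools (left) and without mutant replicate 4 (right). Probe sets of the same gene kept r of 0.66 or more on both sides, while pairs of different genes lay between -0.26 and 0.46 on the right.

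Among 54 singly named genes of the deposited table outside the window, those whose deviations were most like those of Paip1 (1425521_at) over the 10 pools were Ccnd2 (r = 0.87), Nlk (r = 0.83) and Ildr2 (r = 0.82). All of these were higher in mutant pools, as Paip1 was, with log2 differences of genotype means of 1.65, 1.23 and 2.83. Mutant replicate 4 was the lowest mutant pool at each, so the sign of its deviation was shared with Paip1 in advance. Without mutant replicate 4 the r of Ccnd2, Nlk and Ildr2 was 0.78, 0.79 and 0.68. Mapk8 (r = 0.75) and Dcx (r = 0.73) then stood above Ildr2 (both named after their values were seen). Unlike Paip1, Mapk8 and Dcx were lower in mutant pools (log2 differences -1.61 and -1.62). Ccnd2 encodes a D-type cyclin, and its gene lies on chromosome 6. Nlk encodes a serine/threonine kinase and lies on chromosome 11, and Ildr2 lies on chromosome 1. The r values describe likeness over the same arrays and were picked as the highest of the 54, so they have no test.

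Sex, also outside the rule, was compared with genotype in the model. None of the 7 members was called between male and female pools by limma, at an adjusted or unadjusted p under 0.05, against 12 of all probe sets (0.0266%) and 2212 at an unadjusted p under 0.05 (4.91%). The largest log2 difference, male minus female, was -0.33 ± 0.18 at Paip1 1425521_at (limma, unadjusted p = 0.0956, adjusted p = 0.977). At the other 6 it lay between -0.25 and 0.20, with an SE of 0.16 to 0.39.

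The genotype difference had the same direction in males and females at all 7. The rule used that difference over the same pools, so nothing is read from this agreement. At Paip1 1425521_at the genotype difference was 2.57 ± 0.27 in males and 2.34 ± 0.27 in females. At Tmem267 it was -1.43 ± 0.55 in males and -2.13 ± 0.55 in females. The difference of the effects, male minus female, ran from 0.14 to 0.71 on the log2 scale. It was called by limma at 0 of 7 members at an adjusted or unadjusted p under 0.05 (smallest unadjusted p = 0.0986 at 1419636_at, adjusted p = 0.999). Over all probe sets 0 were called (0%), with 3.87% at an unadjusted p under 0.05. Mutant replicate 4 is male: without it the difference at Tmem267 was -0.04 ± 0.28, against 0.71 ± 0.78 with it. With 2 or 3 pools per genotype and sex, these intervals are wide.

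Other genes of the pathway of Paip1 could not be set beside it. Of a list of 21 genes of poly(A) binding and translation initiation, and of a list of 17 further genes of distal chromosome 13, 0 had a named probe set. Their probe sets were measured without names, so these lists have no values here.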

How the data were processed

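Total RNA of 10 MGE pools was measured as biotin-labelled cRNA on Affymetrix Mouse430_2 arrays, per the labels' protocols and the file headers. Per the file headers, the deposited values are linear intensities, 1 for each array at every probe set. What software summarised them was not given in the sources. A second deposited table, per the file headers, lists probe sets with a corrected p-value of at most 0.05 and a change of 2-fold or more. The authors gave in it a ratio, a log2 fold change, a signed fold score and an intensity per genotype. Its levels differ from those of the value table. Current symbols came from RefSeq (GRCm38.p6) by Entrez number, and all 7 members matched. Evf2 was matched as a RefSeq synonym.

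Intensities were taken as log2(value + 16). The 64 control probe sets were left out. Linear models (limma 3.58.1 in R 4.3.3) had terms for genotype and sex, with eBayes and Benjamini-Hochberg adjustment over 45037 probe sets. Effects within each sex used a separate mean for every combination of genotype and sex. The pools are separate samples of 2 brains each, so p-values cover variation among pools. Fits and permutation tests were tested on simulated data. Every member is named. Further named genes were the 3 of the deposited table most like Paip1 and the other listed genes of chromosome 13. Members and lists were chosen with earlier results of these data known.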

Additional observations from a re-analysis of the deposited data

Results flagged for a closer look

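In 14 groups of 5 pools (7 probe sets in each genotype), 5 held a pool that stood well away from its group (Dixon's ratio). By chance about 1 in 20 groups would. All 5 were mutant replicate 4, and the probe sets share that pool, so they are not separate observations. Paip1 read 490.1 at 1425521_at (768.7 to 830.5 in the other mutant pools) and 232 at 1441955_s_at (359 to 385). 4833420G17Rik read 60.7 at 1419635_at (18.1 to 24.2) and 410.2 at 1419637_s_at (170.4 to 225). Tmem267 read 174 (21.7 to 32.4). The cause was not tested.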

How the results depend on the processing

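The direction of all 7 members, 2 higher and 5 lower, held in all 18 alternatives in which it was computed. The rule used this contrast on the same arrays, so nothing is read from that. No member was called for sex or for the difference between sexes in any of 17 alternatives. Sizes moved with the pseudocount as given above, and 1419636_at had -1.61 and 1419637_s_at -1.58 at pseudocount 64. Leaving out 1 pool gave 2.29 to 2.57 for Paip1 1425521_at and -2.15 to -1.62 for Tmem267. The number of probe sets called for genotype was 241, and 55 at pseudocount 1, 375 with array weights, 72 at an adjusted p under 0.01 and 39 with a replicate block. Leaving out 1 pool gave 72 (mutant replicate 1) to 259 (mutant replicate 4), with 141 and 140 without mutant replicates 2 and 3 and 133, 96 and 108 without wildtype replicates 2, 4 and 5. In the labels, pools of different genotype share only a replicate number. Deviations of equal numbers correlated at -0.129 to 0.072, and 1 of 5 mutant pools matched its own number best. Whether equal numbers shared a litter or batch was not tested. The number of covarying pairs was 4, and 2 by Spearman rho (both of 4833420G17Rik), 0 with deviations from genotype and sex means (fewer orderings), 0 to 4 leaving out 1 pool and 0 without mutant replicates 4 and 5 together, a choice made after the data were seen. Among these, it was 0 without mutant replicate 4 or 5 or wildtype replicate 2, 1 without mutant replicate 2 or wildtype replicate 5, and 2 without mutant replicate 1 or 3. The cause of these changes was not tested.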
